A study of Rattus norvegicus with 6 samples.

Results

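Amino acid supply was followed through 10 genes in rat dorsal root ganglia (DRG) after nerve injury: Phgdh, Psat1 and Shmt2 of the serine and glycine route, Asns of asparagine synthesis, the membrane carriers Slc7a1, Slc7a3, Slc7a5, Slc7a11 and Slc3a2, and the glutathione-degrading enzyme Chac1. They were taken by name from the array annotation, each through a transcript cluster (the summary of a gene's probesets) annotated to that symbol alone. Each of the 10 genes had 1 such cluster and no cluster shared with another symbol, and they stand beside 13215 genes measured in all.

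The tissue was the L5 DRG of male Wistar rats, taken 7 days after transection of the L5 spinal nerve (SNT), a rat model of neuropathic pain, or from naive rats. Each group had 3 Affymetrix Rat Exon 1.0 ST arrays, each hybridised with polyadenylated RNA of 4 pooled animals. The controls had no operation and there was no sham group, so effects of the surgery and of the nerve cut cannot be told apart. A ganglion holds neurons, glia, vessels and immune cells, and in such bulk RNA fewer cells of a type and less RNA per cell cannot be told apart.

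Amino acids reach a cell by uptake or by its own synthesis. Phgdh, Psat1 and Psph turn a glycolytic intermediate into serine, which the Shmt enzymes split into glycine and a one-carbon unit, and Asns makes asparagine from aspartate and glutamine. Slc3a2 is the heavy chain that brings light chains to the plasma membrane: with Slc7a5 it forms a carrier of large neutral amino acids (LAT1), with Slc7a11 the cystine-glutamate exchanger that feeds glutathione synthesis. Slc7a1 and Slc7a3 carry arginine and lysine without a heavy chain. In mammalian cells many of these genes are known targets of ATF4, a transcription factor made when the initiation factor eIF2alpha is phosphorylated, and Slc7a11 is also a known target of NRF2, the factor of the antioxidant response. Sensory neurons make most proteins of their long axons in cell bodies that lie in the ganglion.

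The RefSeq promoters of 9 of the 10 genes were searched on both strands for 3 short motifs. Each window ran from 250 bases before to 50 after a gene's start (GRCr8 assembly). Slc7a3 had no entry, and Slc3a2 had a pair of starts, with a match in only 1 of them. A gene counts as matched through any of its starts, while the shares over all promoters count every start separately. The C/EBP-ATF response element TGATGNAA, the site known for ATF4, matched in 2 of the 9 genes and in 3.98% of all 33469 promoters. Both matches are shown because Slc7a1 and Chac1 belong to the genes that fell below, with the match in capitals and the sequence on the gene's strand.
Slc7a1: cggcgcgcggcTGATGAAAccggctcggat
Chac1: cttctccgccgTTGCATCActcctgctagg
The first lies at chr12:11664447-11664476 (plus strand), with the match at bases -30 to -23 from the start. The second lies at chr3:126795953-126795982 (plus strand), where the match is on the opposite strand at bases -167 to -160. The antioxidant response element core TGACNNNGC matched in 3 of the 9 genes (Slc7a1, Slc3a2 and Phgdh) and in 12.1% of all promoters. That of Phgdh lies after the start (bases 20 to 28). The others are shown for a gene with all SNT arrays above naive and a gene with all SNT arrays below.
Slc3a2: ggcggatcgggGCGGAGTCAtgggtcactt
Slc7a1: gcggccgcgccGCGCTGTCAttggtgcctg
That of Slc3a2 lies at chr1:215039697-215039726 (minus strand), with the match at bases -45 to -37, and that of Slc7a1 at chr12:11664370-11664399 (plus strand), at bases -107 to -99, both on the opposite strand to the gene. CACGTG, the E-box, matched in 1 of the 9, at bases -179 to -174 of Slc7a5, against 6.42% of all promoters. The windows of Asns, Psat1, Shmt2 and Slc7a11 held none of the 3 motifs. Sites outside these windows, or with other letters, were not looked for, so no match does not mean no site. The letters overlap in none of the printed matches, and a match is a run of letters, not a measured site.

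Values are on a log2 scale as normalised by the authors, where a difference of 1 is a fold of 2. SNT was compared with naive by limma across all clusters, and a gene is said to rise or fall where its Benjamini-Hochberg adjusted p lay below a false discovery rate (FDR) of 0.1. Changes are SNT minus naive ± standard error with n = 3 arrays per group, and each adjusted p is from limma. With 3 arrays on either side, p = 0.1 is the smallest that an exact permutation test allows. The pools were of separate animals, and p-values measure the spread between pools.

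Of the 10 genes, 5 fell after SNT and 0 rose, where 38.2% of all genes passed the test, 18.3% as falls and 19.9% as rises. Psat1, Phgdh, Asns and Slc7a1 fell by 0.57 to 0.71, and Chac1 by 0.29. At an unadjusted p under 0.05 limma also gave 0 rises, and Slc7a5, with an unadjusted p of 0.0513, came nearest. These counts depend on the processing: 2 of the 10 genes rose after a second quantile normalisation or cyclic loess. The call of Chac1 was lost in 7 of 15 alternative fits. Over all clusters 54% of the calls were rises, or 35.5% with each array centred on its median. The median over the 10 genes was -0.28 against 0.07 over all genes. In 7 of them the arrays of the groups did not overlap, as for 51.6% of all genes, with SNT lower in 6 and higher in 1. None changed by a fold of 2 or more, as 5.51% of all genes did past FDR 0.1.

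**Figure D1:**
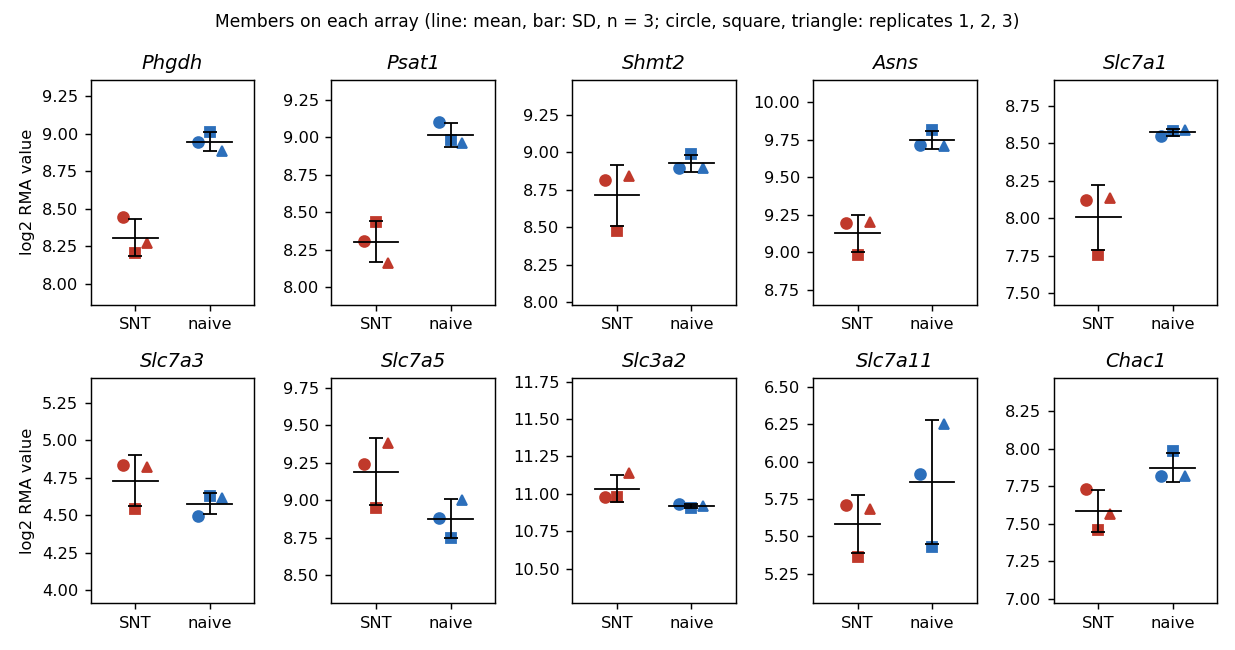
Log2 RMA value of each of the 10 genes on each array, SNT in red and naive in blue, with mean (line), SD (bar, n = 3) and the replicate number as circle, square or triangle. Every panel spans the same height in log2 units. For Phgdh, Psat1, Asns and Slc7a1 the groups lie well apart, while Slc7a3, Slc7a5 and Slc7a11 overlap.

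Serine synthesis starts with Phgdh, which oxidises 3-phosphoglycerate. Phgdh had 8.45, 8.21 and 8.27 in the 3 SNT arrays against 8.95, 9.01 and 8.88 in the naive arrays. Every SNT array lay below every naive array, and Phgdh fell by 0.64 ± 0.09 (1.56-fold lower, adjusted p = 0.00687). Psat1, the aminotransferase of the next step, had 8.31, 8.44 and 8.16 in SNT against 9.11, 8.98 and 8.96 in naive. It showed the largest fall of the 10 genes, by 0.71 ± 0.10 (1.64-fold lower, adjusted p = 0.00633), with no overlap. Among all 13215 genes ordered from the largest fall, Psat1 stood at place 757 and Phgdh at place 916. Psph, the phosphatase of the last step, is given after its values were seen, as the rest of the route. Psph had 7.91, 8.36 and 8.18 in SNT and 8.10, 8.13 and 7.89 in naive, which overlap (0.11 ± 0.13, adjusted p = 0.573).

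Shmt2, the mitochondrial enzyme that makes glycine and a one-carbon unit from serine, did not pass the test. Its values were 8.82, 8.48 and 8.85 in SNT and 8.89, 8.99 and 8.89 in naive. The SNT arrays were all lower, but 2 of the 3 by little, and the change of -0.21 ± 0.12 had a 95% interval of -0.49 to 0.06 (adjusted p = 0.23). Without the array of SNT replicate 2, which was its lowest, the change was -0.10. Shmt1, the cytosolic counterpart, went the other way. Shmt1 had 5.51, 5.66 and 5.57 in SNT against 5.03, 5.15 and 5.23 in naive, a rise of 0.44 ± 0.09 (adjusted p = 0.0146). These values lay below the median of all clusters on each array (6.11 to 6.31), so they may hold nonspecific signal.

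Around these enzymes, a list of 20 further genes of serine, glycine and one-carbon metabolism had 14 measured, of which 2 rose and 4 fell, with a median change of -0.00339. Over all genes 19.9% rose and 18.3% fell, the shares to set beside this and each later list. The falls were in Slc25a32, the mitochondrial folate carrier (-0.72 ± 0.14), Dld, a subunit shared by the glycine cleavage system and several dehydrogenases (-0.45 ± 0.08), Srr, which makes D-serine (-0.33 ± 0.08), and Mtrr, which reactivates methionine synthase (-0.31 ± 0.07). Besides Shmt1, Mthfd2 rose, a mitochondrial folate enzyme and known ATF4 target in mammalian cells. Mthfd2 had 7.25, 6.66 and 6.83 in SNT and 6.40, 6.51 and 6.41 in naive (0.47 ± 0.15, adjusted p = 0.067). Leaving out naive replicate 1 (adjusted p = 0.184), 2 (0.138) or 3 (0.168), or cyclic loess (0.105), ended its call, so that 1 gene of the list rose in each of these fits, and that of Srr was lost without naive replicate 2 (0.115).

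**Figure D2:**
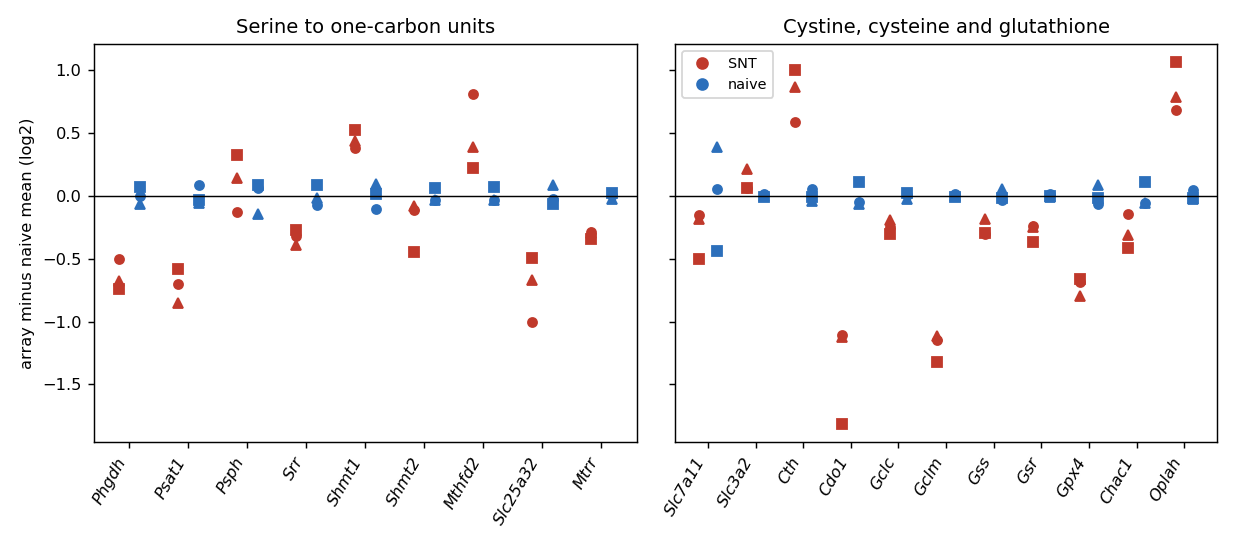
Each array's difference from the naive mean, in log2 units, for genes ordered along the route from serine to one-carbon units (left) and along that from cystine through glutathione (right), SNT in red and naive in blue, replicates 1 to 3 as circles, squares and triangles. Phgdh and Psat1 lie below zero on all SNT arrays while Psph straddles it, and on the right Gclm and Cdo1 lie furthest below and Cth and Oplah furthest above.

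Asns, asparagine synthetase, had 9.19, 8.98 and 9.20 in SNT against 9.72, 9.82 and 9.71 in naive. The naive arrays spanned little and the SNT arrays lay well under them. Asns fell by 0.62 ± 0.09 (1.54-fold lower, adjusted p = 0.00718), at place 959 among the falls. Nars1, which charges asparagine onto its tRNA, fell by 0.46 ± 0.08 (adjusted p = 0.0119), and Asrgl1, which can hydrolyse asparagine, by 0.55 ± 0.10 (adjusted p = 0.0129). Aspg, another asparaginase by name, rose by 0.29 ± 0.09 (adjusted p = 0.0606), a call lost without SNT replicate 2 (0.108) or naive replicate 1 (0.167), 2 (0.144) or 3 (0.18) and after cyclic loess (0.129) or median centring (0.138).

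Of 26 other enzymes of amino acid metabolism, 18 were measured, and 2 rose and 6 fell (median change -0.03). Gls2, a glutaminase, had 7.54, 6.94 and 7.12 in SNT against 8.33, 8.38 and 8.23 in naive, and fell by 1.11 ± 0.16 (adjusted p = 0.00659). Got1, the cytosolic aspartate aminotransferase, fell by 0.82 ± 0.14. Gpt2 and Glud1, which move nitrogen between glutamate, alanine and ammonia in mitochondria, fell by 0.40 ± 0.08 and 0.35 ± 0.08, and that call of Glud1 was at the threshold without naive replicate 1 (0.1001). The rises were those of Aspg and of Cth, the enzyme that releases cysteine from cystathionine. Cth had 6.95, 7.37 and 7.23 in SNT against 6.42, 6.36 and 6.33 in naive, a rise of 0.82 ± 0.12 (adjusted p = 0.00702). Without SNT replicate 2 or any 1 of the naive arrays, and after cyclic loess or median centring, 1 gene of this list rose.

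Slc7a1 is the main carrier of arginine and lysine in many tissues. Its values were 8.12, 7.76 and 8.14 in SNT and 8.55, 8.58 and 8.59 in naive. The naive arrays lay within 0.1 of each other, and SNT replicate 2 was the lowest. Slc7a1 fell by 0.57 ± 0.12 (1.48-fold lower, adjusted p = 0.0172), at place 1091 among the falls. Slc7a3, a related cationic carrier of the nervous system, was dim, with a mean above 24.1% of all clusters. Slc7a3 had 4.84, 4.54 and 4.82 in SNT and 4.50, 4.63 and 4.61 in naive, which overlap. The change of 0.15 ± 0.11 had an interval of -0.10 to 0.40 (adjusted p = 0.331), and no background level was set, so a value this low may hold nonspecific signal.

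Slc3a2, the heavy chain, had 10.98, 10.98 and 11.14 in SNT against 10.93, 10.91 and 10.92 in naive. Every SNT array was the higher, yet the change of 0.11 ± 0.08 did not pass the test (interval -0.08 to 0.30, adjusted p = 0.346). After a second quantile normalisation the change was 0.23 (adjusted p = 0.0551) and after cyclic loess 0.26 (adjusted p = 0.0351), both past the threshold. Slc7a5, its partner in LAT1, had 9.24, 8.94 and 9.38 in SNT and 8.88, 8.74 and 9.003 in naive. SNT replicate 2 lay below naive replicate 3, so the groups overlap. The change of 0.31 ± 0.13 had an interval of -0.00234 to 0.63 (adjusted p = 0.139). It passed the threshold without SNT replicate 2 (0.44, adjusted p = 0.0507), after quantile normalisation (0.41, 0.0886) and after cyclic loess (0.40, 0.0781).

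Slc7a11, the light chain of the cystine exchanger, had 5.71, 5.36 and 5.68 in SNT and 5.92, 5.43 and 6.25 in naive. Its mean lay above 42.8% of all clusters. Here the naive arrays spread more widely than the SNT arrays, and the groups overlap. The change of -0.28 ± 0.21 had the widest interval of the 10 genes, from -0.79 to 0.23 (adjusted p = 0.381). Without naive replicate 2 it was -0.50, and without naive replicate 3 it was -0.09.

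Of the other carriers of both families, 11 of 12 were measured, and 1 rose and 2 fell (median 0.03). Slc7a6, a light chain that exchanges cationic for neutral amino acids, rose by 0.38 ± 0.07 (adjusted p = 0.0144). Its relative Slc7a7 fell by 0.44 ± 0.12 (adjusted p = 0.046) and Slc7a2, an arginine carrier, by 0.48 ± 0.14 (adjusted p = 0.0473). The call of Slc7a7 was lost without naive replicate 1 (0.137) or 2 (0.146), and that of Slc7a2 without SNT replicate 2 (0.115) or 3 (0.112), without naive replicate 1 (0.151) or 3 (0.14), and after quantile normalisation (0.14) or cyclic loess (0.117). The list held 3 rises without SNT replicate 2, 0 falls without naive replicate 1, and 1 fall without SNT replicate 2 or 3 or naive replicate 2 or 3. Slc7a8, the other light chain of the system L carriers, did not pass the test (-0.04 ± 0.10, adjusted p = 0.818).

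Among amino acid carriers of other families, 29 of 37 were measured, and 5 rose and 6 fell (median 0.02). These counts lie near the 19.9% of rises and 18.3% of falls over all genes. Slc1a5, a carrier of glutamine and other neutral amino acids, had 6.93, 7.31 and 7.25 in SNT against 6.17, 6.18 and 6.26 in naive. It rose by 0.96 ± 0.11 (adjusted p = 0.00512), and Slc6a6, the taurine carrier, rose by 1.30 ± 0.23 (adjusted p = 0.0115). Slc1a1 also rose, by 0.37 ± 0.09 (adjusted p = 0.0253). Slc38a1, a glutamine carrier of neurons, had 9.15, 8.82 and 9.001 in SNT against 9.74, 9.69 and 9.71 in naive, a fall of 0.73 ± 0.10 (adjusted p = 0.00643). Slc36a1, a proton-coupled carrier of lysosomes, fell by 0.92 ± 0.19, and Slc1a4, which carries alanine, serine and cysteine, by 0.46 ± 0.13, a call lost without naive replicate 1 (0.134) or 2 (0.132) and after quantile normalisation (0.103). Without naive replicate 1 or 2 there were 3 rises and 2 falls, and without SNT replicate 2 or 3 or naive replicate 3 there were 3 falls. After quantile normalisation there were 3 falls, and after median centring 3 rises.

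**Figure D3:**
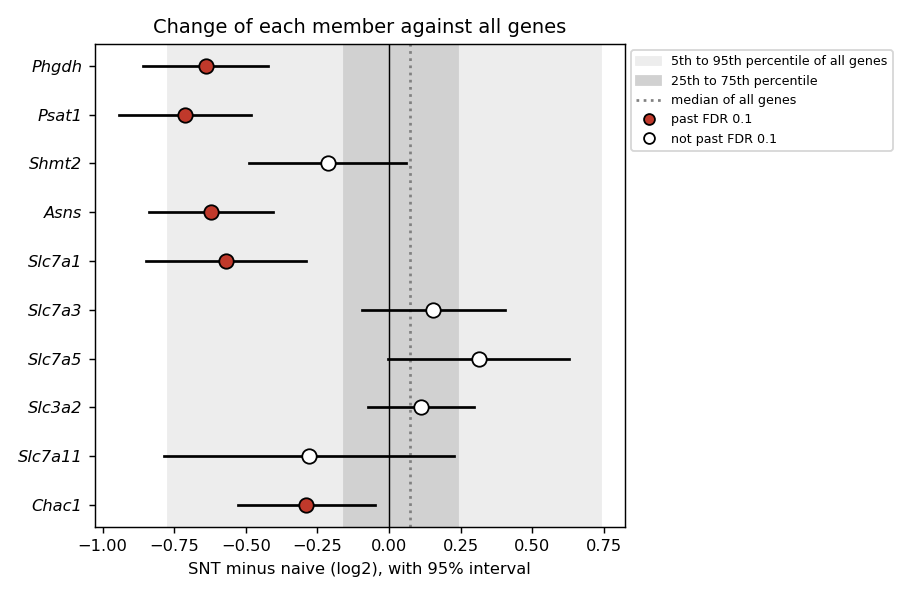
Change of each of the 10 genes, SNT minus naive in log2 units, with its 95% interval, red where it passed FDR 0.1 and white where it did not. Grey bands span the 5th to 95th and 25th to 75th percentiles of all genes and the dotted line is their median of 0.07. Phgdh, Psat1, Asns, Slc7a1 and Chac1 lie left of the darker band with intervals clear of zero, and none passes on the right.

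Chac1 cleaves glutathione inside the cell and is a known target of the ATF4 pathway in mammalian cells. Its values were 7.73, 7.46 and 7.56 in SNT and 7.82, 7.98 and 7.82 in naive. The groups did not overlap, though SNT replicate 1 lay less than 0.1 below the nearest naive array. Chac1 fell by 0.29 ± 0.10 (1.22-fold lower, adjusted p = 0.0834). This call was lost without SNT replicate 2 (0.185) or 3 (0.153) and without naive replicate 1 (0.169), 2 (0.242) or 3 (0.155), and after quantile normalisation (0.113).

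Of 18 other genes of glutathione metabolism, 16 were measured, and 5 rose and 6 fell (median 0.02). Gclm, the modifier subunit of the enzyme that starts glutathione synthesis, had 8.35, 8.18 and 8.38 in SNT against 9.51, 9.49 and 9.49 in naive. It fell by 1.20 ± 0.08 (2.29-fold lower, adjusted p = 0.00219). The catalytic subunit Gclc fell by 0.25 ± 0.07 (adjusted p = 0.0483) and Gss, which completes glutathione, by 0.26 ± 0.08 (adjusted p = 0.0498). Gpx4, which reduces lipid peroxides with glutathione, fell by 0.72 ± 0.08 (adjusted p = 0.0047), whereas Gpx1 rose by 0.74 ± 0.18 (adjusted p = 0.0276). Cdo1, which oxidises cysteine and was counted among the other enzymes, fell by 1.35 ± 0.20 (adjusted p = 0.00703). The rises also included Oplah, which recycles oxoproline to glutamate (0.84 ± 0.11), and Anpep, an aminopeptidase of the cell surface that myeloid cells also carry (1.70 ± 0.32). Calls of Gclc and Gss were both lost without SNT replicate 2 (0.108 and 0.109) or without naive replicate 1 (0.161 and 0.134), 2 (0.157 and 0.135) or 3 (0.129 and 0.17), and that of Gclc also after quantile normalisation (0.144) or cyclic loess (0.101). The list had 3 rises without naive replicate 1 or 2, and 3, 2 and 3 falls without naive replicates 1, 2 and 3.

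The regulators named above were looked at next. Atf4 transcript had 9.65, 9.78 and 9.83 in SNT and 9.72, 9.80 and 9.83 in naive. These overlap throughout (-0.03 ± 0.08, adjusted p = 0.826), and the sign of this small change differs between normalisations (-0.12 to 0.10 over the alternatives). ATF4 is controlled mainly in translation, which arrays do not measure. Of 17 genes for ATF4 and its other known targets, 15 were measured, and 4 rose and 2 fell (median 0.20).

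Atf3, also a gene induced by nerve injury, had 11.36, 11.52 and 11.63 in SNT against 7.74, 7.69 and 7.74 in naive. Its rise of 3.78 ± 0.09 (adjusted p = 3.75e-05) was the largest of the list and matches the labels of the arrays. Eif4ebp1, which restrains translation initiation, rose by 0.68 ± 0.12 (adjusted p = 0.0108), and Gdf15, a stress-induced secreted factor, by 0.66 ± 0.15 (adjusted p = 0.0212). Ddit3, encoding CHOP, went the other way, by -0.30 ± 0.09 (adjusted p = 0.0508), a call lost without SNT replicate 2 (0.112) or naive replicate 1 (0.155), 2 (0.167) or 3 (0.108), which left 1 fall. Vegfa fell by 0.43 ± 0.07 (adjusted p = 0.0098). Trib3, a pseudokinase induced by ATF4, had 5.85, 5.50 and 5.31 in SNT and 5.26, 5.30 and 5.15 in naive (0.31 ± 0.14, adjusted p = 0.16), and passed without SNT replicate 3 (0.0701).

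Upstream, 12 of 16 genes for eIF2alpha, its kinases, phosphatase subunits and exchange factor were measured, and 4 rose and 4 fell (median -0.12). Eif2b2, a subunit of the exchange factor, fell by 0.71 ± 0.08 (adjusted p = 0.00436) and Eif2ak1, the haem-regulated kinase, by 0.37 ± 0.08 (adjusted p = 0.0183). Eif2b4, another subunit of that factor, fell by 0.29 ± 0.07, lost without naive replicate 1 (0.103) or 2 (0.11). Eif2ak4, the kinase GCN2 that senses uncharged tRNA, had 7.06, 7.19 and 7.15 in SNT and 7.18, 7.18 and 7.14 in naive (-0.03 ± 0.07, adjusted p = 0.781). The 4 rises were each under 0.3, among them Ppp1r15b, a phosphatase subunit (0.28 ± 0.08), and Gcn1, an activator of GCN2 (0.23 ± 0.07). Eif2ak3, another of the kinases, rose by 0.25 ± 0.09 (adjusted p = 0.0912) and Ppp1r15a by 0.29 ± 0.11 (adjusted p = 0.0961). Rises in the list numbered 1 without SNT replicate 3 and 0 without SNT replicate 2 or any 1 of the naive arrays, and 0 with each array centred on its median. The falls numbered 2 without naive replicate 1 or 2.

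Other readers of amino acid supply had mostly small changes. Of 21 cytosolic aminoacyl-tRNA synthetases, 14 were measured, and 5 fell and 0 rose, also 0 at an unadjusted p under 0.05 (median -0.05). Besides Nars1, falls were seen in Tars3 (-0.55 ± 0.09), Farsb (-0.53 ± 0.07), Lars1 (-0.42 ± 0.10) and Sars1 (-0.30 ± 0.08), each of which charges the tRNA of its amino acid. The call of Lars1 was lost without naive replicate 1 (0.105) and that of Sars1 without naive replicate 1 (0.144), 2 (0.127) or 3 (0.104) and after quantile normalisation (0.207) or cyclic loess (0.167). There was 1 rise without SNT replicate 1, and there were 3 falls without naive replicate 1. A further list held 22 genes of amino acid sensing to mTORC1, a kinase complex that drives growth, not divided into activators and inhibitors of the complex. Of these, 14 were measured, and 3 fell and 0 rose, also 0 at an unadjusted p under 0.05 (median -0.10). Rragd, a lysosomal GTPase of that pathway, fell by 0.66 ± 0.11 (adjusted p = 0.00964). Nprl3 and Lamtor5 fell by 0.33 ± 0.08 and 0.43 ± 0.11, calls lost without naive replicate 1 (0.114, Nprl3), 2 (0.112, Nprl3) or 3 (0.103, Lamtor5).

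Of 12 genes for NRF2 and its other known targets, 11 were measured, and 3 rose and 3 fell (median 0.15). Nqo1, a quinone reductase, had 7.98, 7.94 and 7.93 in SNT against 8.75, 8.96 and 8.63 in naive, a fall of 0.83 ± 0.10 (adjusted p = 0.00541). Me1, which makes NADPH, fell by 0.67 ± 0.10 (adjusted p = 0.00775), and Keap1, which holds NRF2 in check, by 0.41 ± 0.09 (adjusted p = 0.021). Nfe2l2, which encodes NRF2, rose by 0.41 ± 0.14 (adjusted p = 0.0766), a call lost without each array in turn except SNT replicate 1 (0.142 to 0.196) and after median centring (0.227). Osgin1, a growth-restraining gene of this response, rose by 0.40 ± 0.10 (adjusted p = 0.0299), lost without naive replicate 1 (0.121) or 3 (0.106). Srxn1, another target in the list, rose by 0.37 ± 0.10 (adjusted p = 0.0447). No gene of the list rose without naive replicate 1 or 3, and 1 did without naive replicate 2.

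**Figure D4:**
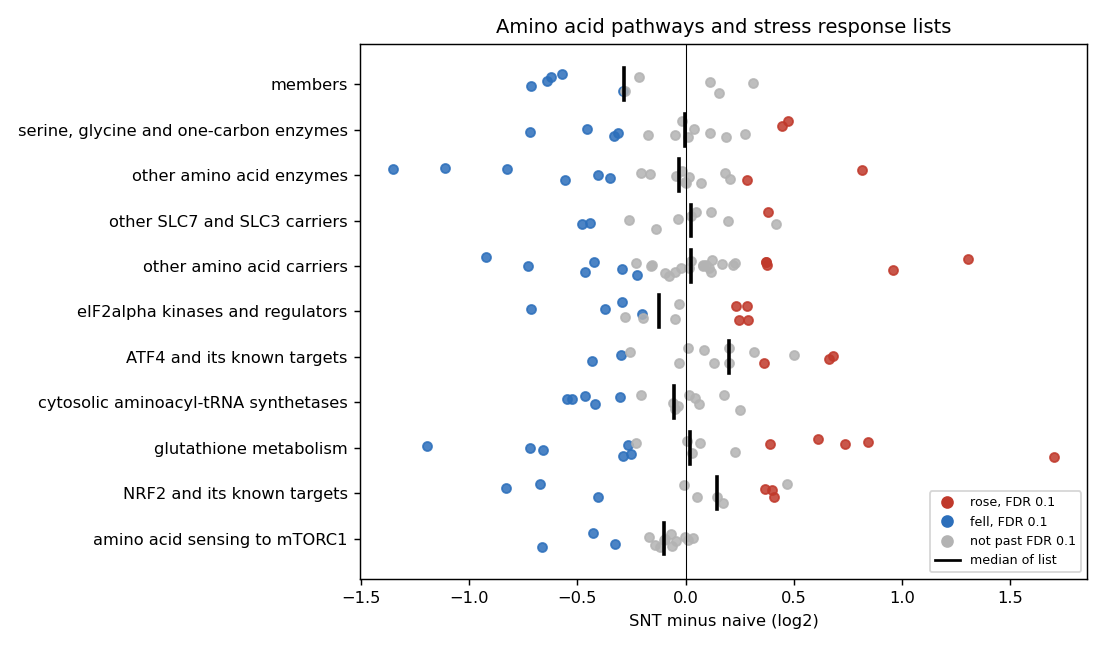
Change of each measured gene, SNT minus naive in log2 units, for the 10 genes and 10 further lists of amino acid and stress response genes, red for genes that rose and blue for those that fell at FDR 0.1, grey for the rest, with the median of each list as a bar. Atf3, at 3.78, lies off the axis and is not drawn. The 10 genes have the lowest median of the lists shown, -0.28, and most other lists hold both rises and falls.

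Markers of the cell types of the ganglion were read on the same arrays. Sensory neuron markers were high in both groups (11 of 15 measured), with 8 falls and 0 rises (also 0 at an unadjusted p under 0.05, and 1 rise after cyclic loess) and a median of -0.76. Their mean level was 10.2 to 10.9 on SNT arrays against 11.4 to 11.5 on naive arrays. Examples are Nefh, the heavy neurofilament chain, at -1.33 ± 0.23, and Ntrk3, a neurotrophin receptor, at -0.76 ± 0.13. All 14 of 15 macrophage markers measured rose (median 1.67), with mean levels of 8.97 to 9.83 on SNT arrays against 7.47 to 7.93 on naive arrays, and C1qa and C1qb were up by 2.31 ± 0.19 and 2.46 ± 0.23. Of 7 markers of dividing cells measured 6 rose (median 1.22), and 3 did without naive replicate 1 or 2.

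T and natural killer cell markers had 5 rises in 7 measured (median 0.61), fibroblast markers 3 in 6 (0.52), endothelial markers 3 in 7 (0.23), pericyte markers 2 in 6 (0.17) and neutrophil markers 1 in 5 (-0.44), with 0 falls in each. Myelinating Schwann cell markers had 4 rises in 8 (0.26) and 0 falls. In none of these lists was there a fall at an unadjusted p under 0.05. The satellite glia list split, with 3 rises and 3 falls in 7 (0.09), Sox10 at 0.66 ± 0.09 and Fabp7 at -1.25 ± 0.25. Whether its genes, Sox10 among them, are particular to satellite glia was not tested. Without naive replicate 1 the rises were 1 for endothelium, 2 for Schwann cells and 1 for satellite glia, where falls were then also 1. Without naive replicate 2 the rises were again 1, 2 and 1, and 1 for pericytes, and without naive replicate 3 satellite glia had 1 fall. Neutrophil markers had 1 fall without naive replicate 1. Markers of skeletal muscle and red blood cells did not pass the test (0 of 3 and 0 of 1), but on SNT replicate 3 the muscle markers were 0.82 above naive at the median, and without it 2 of the 3 fell. The part of these cell types in the values of the 10 genes was not tested.

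The SNT arrays themselves were not alike. SNT replicate 1 correlated with the other SNT arrays at r = 0.982 and with the naive arrays at r = 0.978 to 0.981, while SNT replicates 2 and 3 correlated at r = 0.99 and the naive arrays at r = 0.994 to 0.996. The median difference of the 10 genes from the naive mean was -0.15, -0.48 and -0.25 on SNT replicates 1, 2 and 3. On the same arrays the neuron markers differed by -0.51, -0.98 and -0.75, and the macrophage markers by 1.16, 2.19 and 1.69. SNT replicate 2 thus gave the lowest values of the neuron markers and the highest of the macrophage markers.

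For 9 of the 10 genes SNT replicate 2 was the lowest of the SNT arrays, as for 34.5% of all genes, although in Slc3a2 it lay within 0.01 of replicate 1. Psat1 was the exception, with its lowest value on replicate 3 and its highest on replicate 2. The 4 larger falls did not hang on this array: without SNT replicate 2, Phgdh changed by -0.59, Asns by -0.55, Slc7a1 by -0.44 and Psat1 by -0.78, each still past FDR 0.1. They also held without SNT replicate 1, whose profile was closest to naive.

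**Figure D5:**
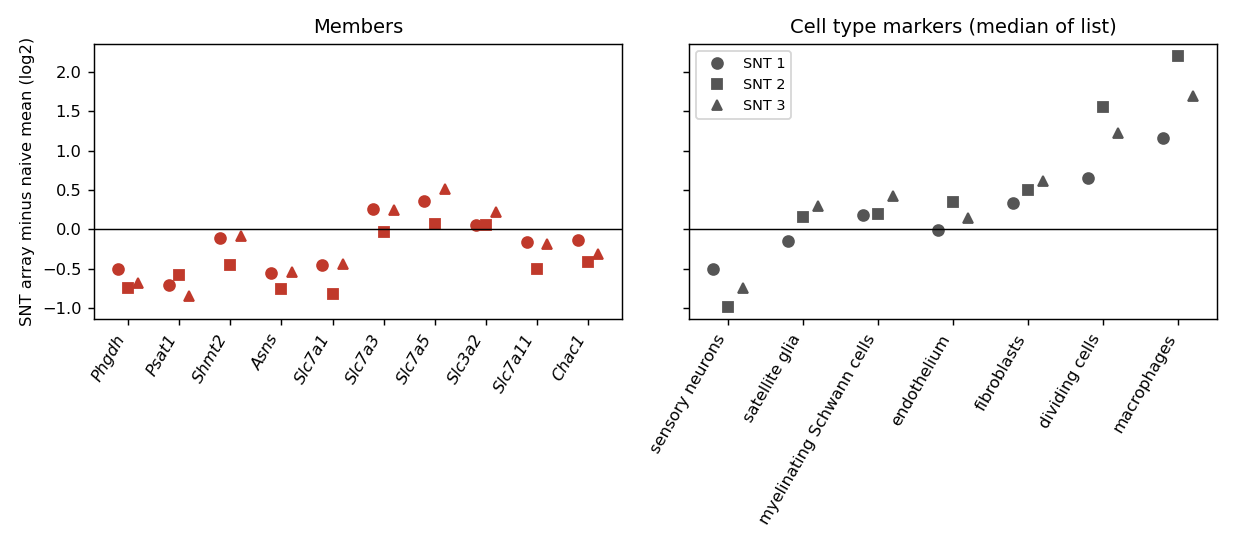
Difference of each SNT array from the mean of the 3 naive arrays, in log2 units, for the 10 genes (left) and as the median of each cell type marker list (right), replicates 1 to 3 as circles, squares and triangles. Replicate 2 lies lowest for most of the 10 genes and for neuron markers and highest for macrophage markers.

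The genes whose values over the 6 arrays ran most like those of Psat1, the largest fall, were Snapc5 (Pearson r = 0.998), Cert1 (r = 0.997) and Dmtf1 (r = 0.996). They changed by -0.83 ± 0.10, -0.45 ± 0.08 and -0.24 ± 0.07. With 3 arrays in each of 2 groups, such values mostly reflect the shared difference between groups and are a description over 13215 genes.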

How the data were processed

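The values are log2 intensities of transcript clusters as deposited by the authors, who ran RMA (robust multi-array average: background correction, quantile normalisation, median polish) in the oligo package. Tool versions were not given in the sources used here. The study took probesets of core and extended confidence, and the labels of the table name no level. For genes commonly changed in pain models, the paper found generally smaller fold changes on the arrays than by RNA sequencing. It names nonspecific binding and signal saturation as drawbacks of arrays, and neither was tested here. Precision is limited by the number of arrays.

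The table held 19418 clusters on 6 arrays, of which 13327 carried 1 symbol in the platform annotation, 620 several and 5471 none. For 102 genes with several clusters, that with the highest mean stood for the gene. The comparison of SNT with naive used lmFit and eBayes of limma 3.58.1 (R 4.3.3) without covariates, with two-sided p-values adjusted over all clusters by Benjamini-Hochberg at FDR 0.1. The fit was also run on simulated data with independent noise on each array, unlike the SNT arrays here. No recovery figures are given, so no result above rests on that run.

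Each of the 10 genes is named. Of a pathway list, up to 4 genes with the smallest adjusted p past FDR 0.1 and up to 2 that opposed the median were named, of a marker list up to 2 (given for some lists as examples), and the 3 genes most like Psat1. Psph, Srr, Asrgl1, Gpt2, Glud1, Slc7a8, Slc1a4, Atf4, Trib3, Eif2ak4, Sars1, Gclc, Gss and Nfe2l2 were named after their values were seen. Of those past FDR 0.1 among them, all but Nfe2l2 fell. Slc1a1, Gpx1, Eif2ak3, Ppp1r15a and Srxn1, all rises, were also named after their values were seen. The 10 genes and the lists were chosen with earlier results of these data known. Lists are described by counts and medians, matched by exact symbol.

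Alternatives were a second quantile normalisation, cyclic loess, median centring, a filter on clusters under the 25th percentile, 1 cluster per gene, the most variable cluster per gene, trended robust moderation, array weights, the replicate number as a block, and leaving out each array. Same-numbered arrays had correlations of -0.0747, -0.149 and 0.054 between their deviations from the group means, so the numbers were not taken to pair the arrays. Scanner files were not used, so no background level was set.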

Additional observations from a re-analysis of the deposited data

How the results depend on the processing

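The calls of Psat1, Phgdh, Asns and Slc7a1 were past FDR 0.1 in all 15 alternatives, with highest adjusted p-values from limma of 0.0379, 0.040, 0.0407 and 0.0676. Shmt2, Slc7a3 and Slc7a11 were past it in none, and Slc7a3 had no value under the filter on dim clusters. No sign of the 10 genes turned. Chac1 changed by -0.28 after quantile normalisation (adjusted p = 0.113), and by -0.36 to -0.23 when 1 array was left out (0.0283 to 0.242). Slc7a5 passed at 0.41 after quantile normalisation and 0.40 after cyclic loess, and gave 0.22 to 0.44 with 1 array left out. Slc3a2 passed at 0.23 and 0.26 under the same normalisations. The number of the 10 genes that rose was 2 under each of these, and 0 to 1 with 1 array left out, where 4 to 5 fell. Over all clusters 3367 rose and 2865 fell. With each array centred on its median 1869 rose and 3403 fell, and with 1 array left out 1643 to 3851 rose and 1856 to 3226 fell. The median change of all clusters moved by -0.0781 after quantile normalisation, -0.0829 after cyclic loess and -0.0877 after median centring. Of 660 counts over lists and alternatives, 584 stayed within 1.5 times the count given above and 76 did not. The cause of these shifts was not tested.

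With the replicate number as a block, which the labels do not tie to shared animals, 2380 clusters rose and 2320 fell. In that blocked fit 1 of the 10 genes rose (Slc7a5, 0.31, adjusted p = 0.0997) and 4 fell, with Chac1 at -0.29 (0.178). In deviations from the group means, no SNT array correlated best with the naive array of its own number.

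The low values of Slc7a3 could not be set against background. The intervals of Slc7a3, Slc7a5, Slc3a2, Shmt2 and Slc7a11 reach past zero, so none of these directions is settled.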
